A study of Homo sapiens with 47 samples.

Results

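The genes described here were 10 members of the AP-1 and immediate early response, *FOS*, *FOSB*, *FOSL1*, *JUN*, *JUNB*, *JUND*, *ATF3*, *EGR1*, *IER2* and *IER3*, of the 25739 genes in the deposited table. They were chosen by name, and all 10 had a row. Values were available for 37 circulating tumor cells (CTCs) from 5 mice and for 6 cells from culture. Every cell was MDA-MB-231-LM2 (LM2), a GFP-labeled metastatic derivative of the human triple-negative breast cancer line MDA-MB-231, and the labels name no drug. For the CTCs, LM2 cells had been implanted in the mammary fat pad of immunodeficient NSG mice aged 6 to 8 weeks, which lack lymphocytes but keep their own myeloid and red blood cells, and the tumors were left to metastasize. Terminal blood was enriched by size on a Parsortix device, and GFP-positive, CD45-negative cells were picked and sequenced with SMARTseq2, which amplifies full-length polyadenylated RNA from a lone cell without molecular identifiers.

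The CTCs came as 2 from mouse 5541, 4 from mouse 5542, 10 from mouse 5545, 17 from mouse 5546 and 4 from mouse 5549. The mouse was treated as the replicate, and the 6 cultured cells as 1 culture. In mouse 5546 the library names include the letter c in 9 cases and s in 8, a split that the sources used here do not explain. Reads on genes ranged from 469614 to 2041333 per CTC and from 776949 to 1186197 per cultured cell. CTCs had 2227 to 11010 genes detected and cultured cells 7226 to 12271. Values are normalized counts, that is, reads divided by a size factor of each cell. They summed to a median of 835760 per CTC and 1318820 per cultured cell, so levels of members that turn on the scale are also given as RPM, reads scaled to the same total in every cell. Of the epithelial and mesenchymal markers, *VIM*, *CD44*, *KRT8* and *KRT18* were detected in 37 of 37 CTCs and 6 of 6 cultured cells. *KRT19*, *ZEB1* and *FN1* were found in 31, 33 and 32 CTCs and in 6, 6 and 5 cultured cells. *EPCAM* was found in 8 CTCs and 5 cultured cells. *CDH1*, the epithelial cadherin, and *CDH2* were found in 1 CTC each and in no cultured cell. *PTPRC*, which encodes CD45, had reads in 11 CTCs and no cultured cell. The leukocyte markers summed to 0 to 2204 in CTCs, with a median of 160, and to 0 to 700 in cultured cells, with a median of 175.

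AP-1 is a dimeric transcription factor made of a JUN protein paired with a FOS, JUN or ATF protein. Immediate early genes are switched on within minutes of a growth factor, stress or adhesion signal, from promoters already occupied by serum response factor or CREB, and their messages decay quickly. *FOSL1*, which encodes FRA-1, differs in that it is kept high by persistent ERK signaling and is known to be abundant in mesenchymal triple-negative lines such as MDA-MB-231.

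The sequences upstream of *FOS*, *EGR1* and *JUND* are shown for the motifs through which such signals are known to act. Each is the 250 bases before the RefSeq start site on GRCh38.p14, written 5′ to 3′ on the gene's strand. Capitals mark CArG boxes, the serum response factor motif, and CRE cores, TGACGT on either strand, part of the CREB motif. The *FOS* window is chr14:75278578-75278827 on the plus strand, the *EGR1* window chr5:138465229-138465478 on the plus strand and the *JUND* window chr19:18281623-18281872 on the minus strand.
FOS: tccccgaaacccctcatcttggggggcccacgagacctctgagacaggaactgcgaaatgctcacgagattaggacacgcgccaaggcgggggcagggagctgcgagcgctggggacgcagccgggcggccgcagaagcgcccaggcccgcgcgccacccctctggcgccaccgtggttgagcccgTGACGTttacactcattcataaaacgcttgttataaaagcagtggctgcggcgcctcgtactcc
EGR1: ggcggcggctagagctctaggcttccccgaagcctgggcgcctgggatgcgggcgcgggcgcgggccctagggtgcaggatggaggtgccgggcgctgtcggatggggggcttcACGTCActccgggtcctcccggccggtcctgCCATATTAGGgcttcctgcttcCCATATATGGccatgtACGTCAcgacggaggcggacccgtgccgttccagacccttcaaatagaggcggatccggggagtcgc
JUND: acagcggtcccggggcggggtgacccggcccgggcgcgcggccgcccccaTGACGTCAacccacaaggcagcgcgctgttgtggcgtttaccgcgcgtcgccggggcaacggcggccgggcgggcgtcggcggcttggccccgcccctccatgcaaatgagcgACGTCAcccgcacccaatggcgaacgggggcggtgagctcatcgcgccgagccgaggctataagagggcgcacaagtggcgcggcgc
The *EGR1* window held 2 CArG boxes, and 1.16% of the 35116 RefSeq promoters of this length held at least 1. It also held 2 CRE cores, which were present in 7.10% of promoters. The *JUND* window held 1 complete CRE, TGACGTCA, found in 1.65% of promoters, within which cores on the opposite strands overlap, and a separate core. *FOS* and *FOSB* had 1 CRE core each. None of these letters occurred in the windows of *JUN*, *JUNB*, *ATF3* or *IER2*, which says nothing of sites outside the window. *FOSL1* and *IER3* were not searched.

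**Figure D1:**
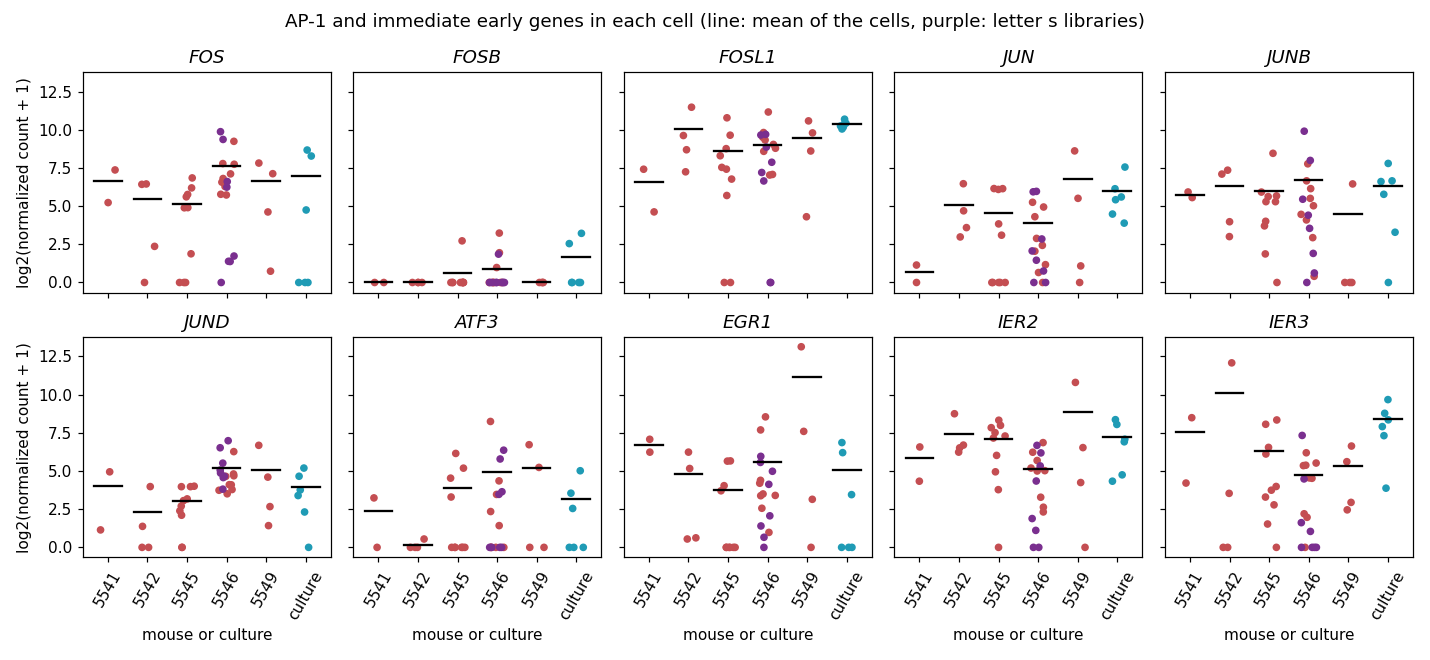
Normalized counts of each gene on a log2 axis after adding 1, for CTCs by mouse and for cultured LM2 cells. Each point is a cell, purple points are the letter s libraries of mouse 5546 and lines are means of the cells. *FOSL1* was tightly grouped between 1060 and 1653 in the cultured cells and spread from 0 to 2847 in the CTCs. Relative to their means, the other members spread more widely over the CTCs.

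*FOSL1* (chromosome 11, 65892049 to 65900573 on GRCh38, minus strand, 4 exon blocks) was the most uniform member in culture and the most abundant in most cells. The 6 cultured cells had normalized counts of 1653 in LM-1, 1378 in LM-10, 1356 in LM-2, 1212 in LM-3, 1152 in LM-P4 and 1060 in LM-P3. Their coefficient of variation was 16.2%, and that over the 37 CTCs, which pool 5 mice, was 121%. Over the CTCs, too, *FOSL1* had the lowest coefficient of variation of the 10 members. How many of the genes tested had such a contrast was not determined. CTCs ranged from 0 to 2847 with a median of 384. The mouse means were 96.6 in mouse 5541, 1049 in 5542, 382 in 5545, 515 in 5546 and 706 in 5549, all of them under the culture mean of 1302. The same order held for 56.9% of the 7588 genes tested, so it does not set *FOSL1* apart. No member had all 5 mouse means above the culture mean, as 1.17% of the genes tested did. In all, 33 of 37 CTCs lay below every cultured cell, a pattern that 6.25% of the genes tested met or passed, and 3 CTCs lay above every cultured cell. For counts above every cultured cell, no share over all genes tested was determined, for *FOSL1* or any other member. Such counts therefore set no member apart. In RPM, 25 CTCs lay below every cultured cell, 7 lay above, and 3 of 5 mouse means were under the culture mean, so how far CTCs and culture overlapped depended on the scale.

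*FOS* (chromosome 14, 75278826 to 75282230, plus strand), the founding AP-1 subunit, was detected in 32 of 37 CTCs (86.5%, exact 95% binomial interval 71.2% to 95.5%) and in 3 of 6 cultured cells. Intervals of this kind cover counting error only. Cultured cells fell into separate levels, with 407 in LM-P4, 310 in LM-P3, 25.9 in LM-1 and 0 in LM-10, LM-2 and LM-3. The 3 cells at 0 were also those with the fewest genes detected among the cultured cells. CTCs had a lowest value of 0, a median of 53.8 and a highest value of 937 in CTC 5546-s8, followed by 659 in 5546-s4 and 605 in 5546-c9. These 3 CTCs, all of mouse 5546, held 49.5% of the summed *FOS* signal of all CTCs and lay above every cultured cell. The mouse means were 100 in mouse 5541, 43.9 in 5542, 34.7 in 5545, 196 in 5546 and 96.9 in 5549, with 4 of them below the culture mean of 124. In RPM, 2 mouse means were below the culture mean of 92.4, and the mean of the mice was 111. Within mouse 5546, the letter c libraries ranged from 52.1 to 605 with a median of 111, and the letter s libraries from 0 to 937 with a median of 38.6.

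*FOSB* (chromosome 19, 45467995 to 45475179, plus strand), the other FOS paralog induced by strong stimuli, was close to the limit of detection. It had reads in 5 of 37 CTCs (13.5%, interval 4.54% to 28.8%), with a highest value of 8.41 in CTC 5546-c9, and in 2 of 6 cultured cells, with 8.31 in LM-P3 and 4.84 in LM-P4. The most reads it had in any CTC were 15. Its mean missed the minimum of 8 for testing, so *FOSB* was left out of the main test.

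*JUN* (chromosome 1, 58776845 to 58784048, minus strand), the JUN subunit that is phosphorylated by JNK, was found in every cultured cell, at 187 in LM-3, 69.4 in LM-P4, 47.5 in LM-P3, 41.8 in LM-1, 21.3 in LM-2 and 13.8 in LM-10. It was detected in 27 of 37 CTCs, and 25 CTCs lay below every cultured cell, or 22 in RPM. The share of all genes tested with such a count was determined for *FOSL1* alone, so these counts do not set *JUN* apart. CTCs had a median of 4.39 and a highest value of 391 in CTC 5549-6, which held 37.9% of the summed signal. The next CTC, 5542-4, had 87.4. Mouse means were 0.604 in mouse 5541, 32.6 in 5542, 22.8 in 5545, 13.8 in 5546 and 109 in 5549. Apart from mouse 5549, which rests on 5549-6, they were below the culture mean of 63.5.

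*JUNB* (chromosome 19, 12791486 to 12793315, plus strand), a weaker activator than JUN at many AP-1 sites, was detected in 32 CTCs and 5 cultured cells. CTCs had a median of 31.5 and a highest value of 958 in 5546-s4, well above the next CTC, 5545-11, at 351. Cultured cells ranged from 0 to 221 with a median of 75.1. Mouse means were 53.0 in mouse 5541, 80.1 in 5542, 61.4 in 5545, 106 in 5546 and 21.6 in 5549, 3 of them below the culture mean of 80.0. In RPM, 1 mouse mean was below the culture mean of 59.1, and the mean of the mice was 71.6. In mouse 5549 only CTC 5549-6 had reads of *JUNB*, with 86.6, and the other 3 CTCs had 0. The exons of *JUNB* share 259 bases with *HOOK2* on the opposite strand, and because reads were counted without strand the genes cannot be told apart there.

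*JUND* (chromosome 19, 18279694 to 18281622, minus strand), the JUN member that is expressed without a stimulus in most cells, was low. It was detected in 33 CTCs, with a median of 14.7 and a highest value of 126, and in 5 cultured cells, between 0 and 35.6. Every CTC of mouse 5546 had it, from 10.4 to 126. Mouse means were 15.5 in mouse 5541, 4.09 in 5542, 7.29 in 5545, 35.4 in 5546 and 33.0 in 5549, against 14.3 in culture. Its level lay above every cultured cell in 5 CTCs by normalized counts and in 14 by RPM, counts whose share over all genes tested was not determined. Its *ρ* with the summed neutrophil markers over the 37 CTCs was 0.598, the highest of the 10 genes for that list, and the part of the markers in its level was not tested. Neutrophil markers summed to 0 to 571 in CTCs, with 4 of 6 detected and *S100A8* and *ELANE* at 0, and to 0 in every cultured cell.

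*ATF3* (chromosome 1, 212565334 to 212620777, plus strand), a stress-induced partner of JUN, was detected in 17 of 37 CTCs and 3 of 6 cultured cells. Its CTC median was 0, and its highest values were 302 in 5546-c10 and 104 in 5549-2. Mouse means were 4.22 in mouse 5541, 0.115 in 5542, 13.6 in 5545, 29.1 in 5546 and 35.3 in 5549, and the culture mean was 7.81. The groups overlapped, with 7 CTCs above every cultured cell, a count whose share over all genes tested was not determined.

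*EGR1* (chromosome 5, 138465479 to 138469303, plus strand), the zinc-finger immediate early factor known to respond to ERK through serum response factor, whose CArG motif is marked above, had the widest range of all 10 genes. It was detected in 29 of 37 CTCs, with a median of 10.3, and in 3 of 6 cultured cells, with 115 in LM-P3, 72.6 in LM-P4 and 9.95 in LM-1. CTC 5549-6 had 8982, from 5394 reads, and the next CTC, 5546-c8, had 372. That library held 86.1% of the summed *EGR1* signal of the CTCs, and the mean over CTCs was 282 with it and 40.4 without it. Mouse means were 104 in mouse 5541, 27.5 in 5542, 12.6 in 5545, 47.6 in 5546 and 2296 in 5549, against 33.0 in culture.

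CTC 5549-6 also had the highest *IER2* (1780) and *JUN* (391) of all CTCs, 225 of *FOS* and 102 of *JUND*, but *FOSL1* at 390 was close to the CTC median. It had 588141 reads and 5202 genes detected. It had the highest sums of erythroid markers, 15558, and of neutrophil markers, 571, of all CTCs. Over the CTCs, erythroid markers summed to 0 to 15558 with a median of 1289, with *HBA1* at 0, and they were 0 in every cultured cell. Whether RNA of blood cells had a part in the *EGR1*, *IER2* or *JUN* values of this library was not tested. Reads had been aligned to the human genome alone, and the share of reads from mouse blood cells was not determined here.

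*IER2* (chromosome 19, 13150411 to 13154911, plus strand), a nuclear immediate early protein, was detected in 33 CTCs and in all 6 cultured cells. CTCs had a median of 50.5 and, below 5549-6, a next highest value of 429 in 5542-4. Mouse means were 56.7 in mouse 5541, 174 in 5542, 138 in 5545, 34.8 in 5546 and 472 in 5549, and the culture mean was 148, with cells from 19.1 to 328. *IER3* (chromosome 6, 30743199 to 30744548, minus strand), an immediate early gene linked to cell survival, was detected in 29 CTCs and in all 6 cultured cells. It reached 4326 in CTC 5542-4, 71.0% of its summed CTC signal, while the next value was 358 in 5541-1 and the CTC median 12.4. Cultured cells had 815 in LM-10, 438 in LM-1, 325 in LM-P3, 239 in LM-P4, 158 in LM-2 and 13.7 in LM-3. Their mean of 332 lay above 4 of 5 mouse means, which were 188 in mouse 5541, 1084 in 5542, 79.3 in 5545, 25.4 in 5546 and 39.3 in 5549. In RPM, the culture mean of 237 lay above 3 of 5 mouse means and below the mean of the mice, 271. Exons of *IER2* and *IER3* overlap antisense noncoding genes, whose reads cannot be told apart from theirs without strand.

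CTC 5542-4 stood at the top for *FOSL1* (2847) as well as *IER3*, was next to the top for *IER2* and *JUN*, and had 0 of *FOS* and *JUND*. CTC 5546-s4 led for *JUNB* and came next to the top for *FOS*, with 61.2 of *EGR1*. At the other end, CTC 5545-6 had 0 for all 10 genes. It had 1049915 reads but only 2227 genes detected, the fewest of all cells, and its *VIM* and other mesenchymal markers still summed to 7297.

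**Figure D2:**
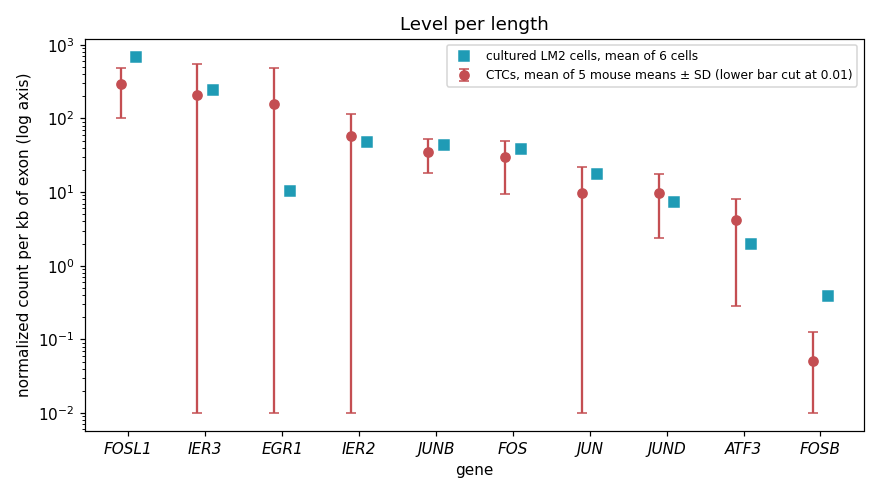
Level of each gene per kilobase of exon on a log axis, for CTCs (circles, mean of 5 mouse means with SD, lower bars cut at 0.01) and for cultured cells (squares, mean of 6 cells). *FOSL1* led in both, and *EGR1* was the gene whose CTC mean lay farthest above its culture mean, with an SD larger than the mean.

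Divided by exon length, so that genes can be compared, the level in CTCs was highest for *FOSL1*, with 291 ± 189 normalized counts per kb (SD, n = 5 mice), then *IER3* with 210 ± 335, *EGR1* with 159 ± 321 and *IER2* with 56.9 ± 57.1. *JUNB* had 35.2 ± 17.1, *FOS* 29.6 ± 20.2, *JUN* 9.88 ± 11.8, *JUND* 9.87 ± 7.49, *ATF3* 4.12 ± 3.83 and *FOSB* 0.0517 ± 0.0736. Neighbours in this order differed by less than the larger of their SDs, save *ATF3* and *FOSB*. By the median CTC, which no lone library sets, *FOSL1* was first at 203 per kb and was followed by *JUNB* at 17.2, *FOS* at 16.9, *IER2* at 16.4 and *IER3* at 9.18, while *EGR1* stood at 3.28. *FOSL1* was the member with the highest level per kb in 24 of 37 CTCs and 6 of 6 cultured cells. In culture it had 690 per kb, against 246 for *IER3*, 48.2 for *IER2*, 43.7 for *JUNB*, 38.8 for *FOS*, 17.5 for *JUN* and 10.5 for *EGR1*.

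To ask whether CTCs differed from cultured cells, the 5 mouse means were compared with the culture mean on the log2(value + 1) scale by limma, across the 7588 genes with a mean of at least 8. No member of the 9 tested passed a Benjamini-Hochberg adjusted p of 0.05, in either direction. Over all genes tested, 0.0132% were called higher in CTCs and 0% lower, that is 1 gene and 0 genes, while 665 genes had an unadjusted p under 0.05. No member was among those 665. The 1 called gene, *PAEP*, is no member. On summed reads, edgeR called 0 genes with 241 at an unadjusted p under 0.05, and DESeq2 called 16 higher and 2 lower, none of them a member, though it gave no adjusted p for *EGR1* or *FOSB*. Because the culture was 1 sample, the test assumes that it varies as the mice do.

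**Figure D3:**
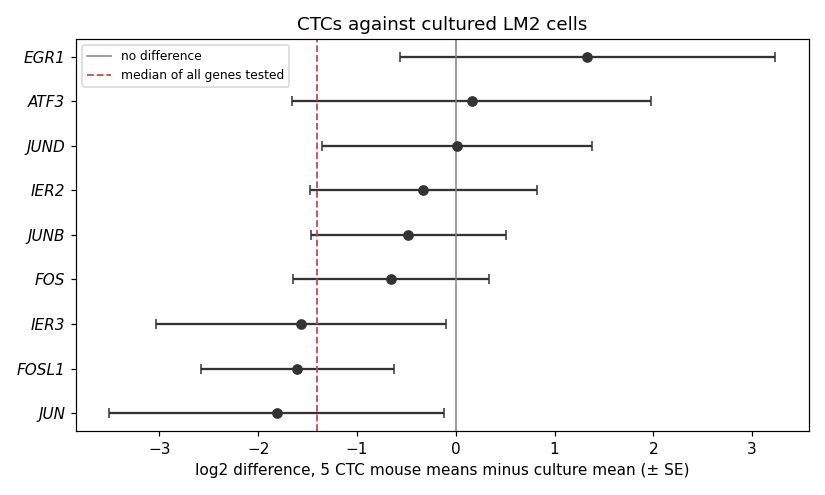
Log2 difference between the 5 CTC mouse means and the culture mean, with its SE from limma, for the 9 genes tested. The dashed line is the median difference of all 7588 genes tested, -1.40, and the members lie on both sides of it.

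The median difference over all genes tested was -1.40 on the log2 scale, and it was 0.31 when edgeR scaled the summed reads, so differences are also given relative to that median. *EGR1* had the largest difference in favor of CTCs, 1.33 (SE 1.90, limma adjusted p = 0.676), or 2.73 above the median of all genes. Without CTC 5549-6 this relative difference of *EGR1* was 1.78, that of *IER2* was 0.40 in place of 1.07, that of *JUNB* 0.08 in place of 0.92 and that of *JUN* -0.90 in place of -0.41, and no member was called either. *JUN* had -1.81 (SE 1.70, adjusted p = 0.546), *FOSL1* -1.61 (SE 0.98, adjusted p = 0.476) and *IER3* -1.57 (SE 1.47, adjusted p = 0.546), or -0.41, -0.20 and -0.17 relative to the median of all genes in that order. *FOS* had -0.65 (SE 0.99), *JUNB* -0.48 (SE 0.99) and *IER2* -0.33 (SE 1.14), with adjusted p of 0.694, 0.775 and 0.869. *JUND* and *ATF3* had 0.01 (SE 1.37) and 0.16 (SE 1.82), with adjusted p of 0.998 and 0.961. Relative to the median of all genes, 6 of 9 members were above it, and the members' median was 0.92 above it. That median was 0.40 without CTC 5549-6, and -0.24, with 3 of these 9 members above the median of all genes, when no filter on low values was applied. The differences not taken relative to the median were above 0 for *FOS*, *FOSL1*, *JUNB*, *IER2* and *IER3* under edgeR on summed reads, which also differs from the main test in its filter and model. They were also above 0 for *FOS* (0.22), *JUNB* (0.14) and *IER2* (0.07) without the cultured cell LM-P4, and for *IER2* (0.11) without mouse 5546. With the mean of log2 values over cells, that of *FOS* was 1.31, or 3.19 relative to the median of all genes. In that setting 7 of 9 members were below 0. *FOSL1* had -2.78, *IER3* -3.24 and *JUN* -2.74, with unadjusted limma p of 0.014, 0.018 and 0.045. The lowest adjusted p of a member was 0.094, and 2360 of the 7588 genes had an unadjusted p under 0.05. With every cell thinned to 469614 reads, the differences of *IER2* and *JUNB* were 0.27 and 0.06. The differences of *JUND* and *ATF3*, near 0, changed sign when single mice or cultured cells were left out.

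**Figure D4:**
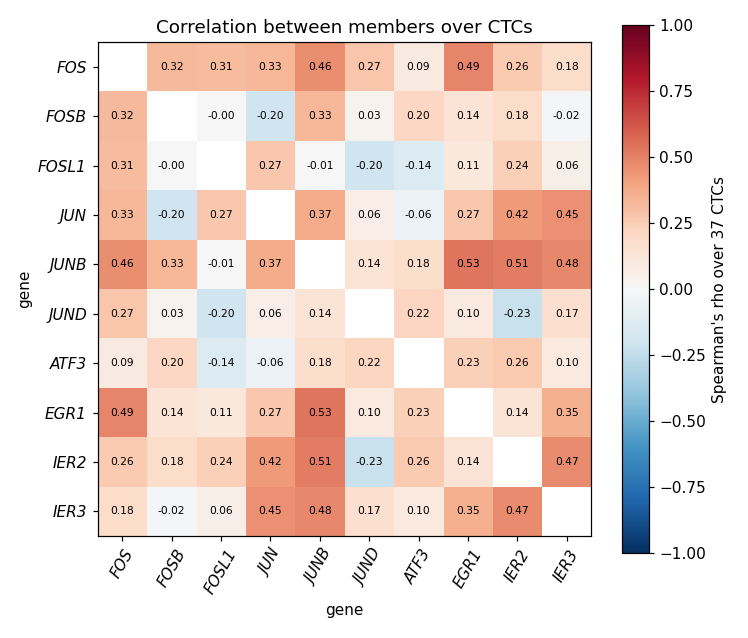
Spearman's rho between each pair of members over the 37 CTCs, with the value printed in each square. The highest values were those of *JUNB* with *EGR1* and with *IER2*, followed by *FOS* with *EGR1*. The pairs of *FOSL1* had a median of 0.056 and those of *JUND* a median of 0.098.

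The members were then compared with each other over the 37 CTCs. These correlations are descriptions, since CTCs share mice and depth varies between them. The 45 pairs had a median Spearman's *ρ* of 0.204, with a range of -0.226 to 0.533, and 37 of them were positive. The highest were *JUNB* with *EGR1* at 0.533 and *JUNB* with *IER2* at 0.508, followed by *FOS* with *EGR1* at 0.491. Within the 17 CTCs of mouse 5546, *JUNB* and *EGR1* had 0.824, with 0.783 among the letter c and 0.881 among the letter s libraries, and within the 10 CTCs of mouse 5545 they had 0.307. *JUND* and *FOSL1* had -0.202 with each other, and *FOSL1* had -0.006 with *JUNB*. Number of genes detected had *ρ* between -0.014 (*ATF3*) and 0.334 (*IER3*) with the members.

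The mean standardized level of the members was compared with each of 7014 genes detected in at least 19 of 37 CTCs, for which the median *ρ* was 0.186. The nearest 10 that are no members were *BCL10* at 0.738, an adaptor of NF-κB signaling, *TMEM43* at 0.716, *RAB22A* at 0.711, *SOCS3* at 0.708, *SDF2* at 0.700, *NFE2L2* at 0.699, *RHOB* at 0.667, *FAM210A* at 0.655, *NCOA3* at 0.651 and *FBXO7* at 0.643. Of these, *SOCS3*, a feedback inhibitor of cytokine signaling, and *RHOB*, an immediate early GTPase, are in the list of other immediate early genes, and *NFE2L2* is in that of AP-1 dimer partners. The mean level of the members itself had *ρ* of 0.337 with the number of genes detected.

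The other genes of the pathway were read in the same fit, in lists that were compiled by name. None of their genes was called in either direction, so the values given next are levels without a called difference, and the genes were singled out after their values were seen. Distances from the median of all genes, here and in the next paragraph, rest on the filter on low values. Without that filter the median of all genes was -0.24 in place of -1.40, and the lists were not read in that fit. Of the 34 other immediate early genes, 25 were tested, 19 of these lay above the median of all genes, and their median was 1.45 above it. *KLF6*, a zinc-finger factor, had the lowest unadjusted p of that list, with a mean of 1125 ± 368 normalized counts in CTCs (SD, n = 5 mice) and 198 in culture (log2 difference 2.44, limma adjusted p = 0.476). *SOCS3*, the other gene of the list with an unadjusted p under 0.05, had 8.36 ± 6.96 in CTCs and 73.7 in culture (log2 difference -3.39, adjusted p = 0.476). *CCN1* and *CCN2*, matricellular proteins, had log2 differences of -1.53 and -2.31. *DUSP1*, the phosphatase that switches off JNK and p38, had 915 ± 574 in CTCs and 245 in culture, and *KLF2* 65.5 ± 63.1 and 6.59. *EGR2* and *EGR3*, paralogs of *EGR1*, were each detected in 2 of 37 CTCs, and *NR4A1* in 14.

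Of the AP-1 family and dimer partners, 12 of 22 were tested, with a median 0.84 above that of all genes. *ATF4* was detected in all 37 CTCs at 270 ± 239 normalized counts and in culture at 296, whereas *FOSL2*, the paralog of *FOSL1*, was found in 19 CTCs at 4.25 ± 6.21 and had a culture mean of 20.6. Of the AP-1 target genes, 16 of 22 were tested, 11 above the median of all genes and with a median 0.69 above it. *PLAU*, the urokinase gene and a known FRA-1 target, had 863 ± 405 in CTCs and 1336 in culture, and *MMP1* was found in 5 of 37 CTCs and 3 of 6 cultured cells. The kinases and factors upstream of immediate early genes had 16 of 22 tested, with a median 0.06 above that of all genes, and *SRF* itself had 10.4 ± 5.86 in CTCs and 10.5 in culture. Among proteins that bind or restrain AP-1, 10 of 14 were tested, with a median 0.13 above that of all genes. Of the heat shock genes, another stress response, 11 of 12 were tested, 5 were above the median of all genes, and the difference of the list's median from it was -0.13. An unadjusted p under 0.05 was found for 5 of these 11, all with lower values in CTCs, against 8.76% of all genes tested. This p is for a departure from no difference, while the median of all genes was itself -1.40. Relative to that median the 5 lay between -1.57 (*HSPH1*) and -0.13 (*HSP90AB1*). The share among genes of like abundance was not determined, so the count does not set the list apart. Of the 665 genes under that p over all genes tested, 650 were lower in CTCs, so the direction does not set the list apart. The lowest was that of *HSPA8*, with 842 ± 367 in CTCs and 6021 in culture (log2 difference -2.95, adjusted p = 0.476).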

How the data were processed

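Single cells were sequenced with SMARTseq2 and their reads aligned by the authors to GRCh38 with STAR 2.7.10a, keeping unique reads and ignoring strand. The deposited values are a signal, read counts per gene scaled by cell-wise size factors from DESeq2 1.42.1. Dividing by the smallest value above 0 in a cell gave back whole reads (100% of values, tolerance 0.001). The 4 CTCs that the labels mark as excluded were not analysed here.

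Gene coordinates came from GENCODE release 44. Cells were averaged per mouse, and log2(mean + 1) was tested in limma 3.58.1 with a mean-dependent prior, 5 mice against 1 culture, over genes with a mean of at least 8, with Benjamini-Hochberg adjustment. Summed reads were tested as alternatives in edgeR 4.0.16 and DESeq2 1.42.0 under R 4.3.3. The limma step alone was run on simulated data. There the culture was drawn with the spread of the mice, so the assumption that it varies as they do was not checked. Other work used Python 3.11.15 with pandas 2.3.3 and scipy 1.17.1. The members and lists were chosen with earlier results of these data known. Genes named are all members, the 3 called genes with the largest difference per list and direction (none was called), the 10 nearest to the members' mean standardized level, markers, and those said to have been singled out.

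Nothing states that cells of a mouse or the culture were independent preparations, so p-values measure the spread between mice. Intervals are exact (Clopper-Pearson). They cover counting error only, because they treat the CTCs as independent although CTCs share mice.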

Additional observations from a re-analysis of the deposited data

Results flagged for a closer look

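In 48 groups of 4 to 10 values of a member (mouse means, CTCs of a mouse or cultured cells, log2 scale), 3 held a value whose gap to its neighbour was large against the group's range (Dixon's 95% critical value). Chance alone gives about 1 in 20 for normally distributed values, which cannot be carried over to groups with many values at 0. In all 3 groups, 1 CTC had reads and the others had 0. The gap was then the whole range, so the rule was met by construction. *FOSB* had 5.62 in CTC 5545-11 and 0 in the other 9 CTCs of mouse 5545. *JUNB* had 86.6 in CTC 5549-6 and 0 in the other 3 CTCs of mouse 5549. *ATF3* had 0.461 in CTC 5542-2 and 0 in the other 3 CTCs of mouse 5542, which is the value of 1 read.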

How the results depend on the processing

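No member was called under the 23 alternatives, of which DESeq2 gave no adjusted p for *EGR1* or *FOSB* and the latter was tested in 4, and 195 of 207 differences of members, taken relative to the median of all genes tested, kept their sign. The number of genes higher in CTCs, 1, became 2 with the mean of log2 values over cells, 0 with edgeR under either scaling, 16 with DESeq2 and 6 under the rule of size, and 0 to 3 when a mouse or a cultured cell was left out (0 without mouse 5549 and 3 without mouse 5541). The number lower, 0, became 3 with a pseudocount of 8, 1800 without a filter on low values, 108 with the mean of log2 values, 2 with DESeq2 and 487 under the rule of size, and stayed 0 in every fit that left out a mouse or a cultured cell. Without the filter the relative differences of *FOS*, *JUNB* and *IER2* became -0.41, -0.24 and -0.084. That of *IER3* became 0.54 with edgeR, 0.53 with the other scaling, 0.41 with DESeq2, 0.38 without mouse 5546, 0.17 without mouse 5549 and 0.39 without LM-10. That of *JUN* became 0.42 without mouse 5541 and 0.33 without LM-3, and that of *FOSL1* 0.28 without mouse 5541. Leaving out a mouse gave -1.08 to 0.42 for *JUN*, -0.96 to 0.38 for *IER3* and -0.50 to 0.28 for *FOSL1*, and leaving out a cultured cell gave -0.66 to 0.33 for *JUN* and -0.37 to 0.39 for *IER3*. The cause was not tested. Leaving out CTC 5549-6 was chosen after seeing the data. No paired analysis was possible because the library numbers of mice and culture name cells and do not pair them. The 8 CTC letter s libraries and the 4 CTCs under 5000 genes changed no call of a member when left out. Where a member had 0 reads in a cell, depth and amplification limit what could be seen.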
